A study of Drosophila melanogaster with 12 samples.

Results

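Whole Drosophila melanogaster flies fed erythritol for 72 h were compared with control flies of the same age across all genes of a raw count table. T72h and CK72h had 3 libraries each, so the comparison took 6 of the 12 libraries of the series, and the other 6 were the corresponding groups at 96 h, T96h and CK96h. The flies were newly emerged adults, kept until day 3 (72 h) or day 4 (96 h) on a sucrose, corn and yeast medium, to which erythritol was added for the T groups and nothing for the CK groups. Each library was made from polyadenylated RNA of a pool of whole flies, and the marker genes of 11 tissues checked, from ovary, testis and gut to muscle and eye, all had counts in CK72h. No strain, sex or ratio of males to females is given in the sources used here, and nothing states which flasks a pool came from, so p-values measure the spread between these pools, which may be in part technical. Of 17707 genes in the table, 13179 had enough counts to be tested.

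Erythritol is a sugar alcohol that is used as a sweetener and that was added here to the flies' food. A whole fly is a mixture of gut, fat body, muscle, eye, brain, blood cells, Malpighian tubules, ovaries, testes and male accessory glands, and a transcript made in 1 organ moves in the whole-fly total both when each cell makes less of it and when fewer such cells are present. Fewer cells of a type and less RNA per cell cannot be told apart in these data. The eggshell and maltase genes that carry the best known responses to erythritol are left aside here, and the other organs and pathways are described in turn.

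The 6 libraries of 72 h held 20131349 to 22436061 counts. Replicates were close, with a biological coefficient of variation of 4.06% over the 12 libraries. T72h replicate 3 stood apart from the others of its group (chi-square per degree of freedom of 59.84 and 23.64 against replicates 1 and 2, compared with 1.755 to 6.477 between the CK72h libraries), and 16.52% of its counts came from the mitochondrial genome, against 8.585% and 11.93% in the other T72h libraries and 8.445% to 10.6% in CK72h. Values are given as CPM, counts relative to the library size scaled by TMM factors, in the order of replicates 1 to 3, and log2 fold changes are T72h over CK72h. A gene is said to have risen or fallen where its adjusted p in edgeR's quasi-likelihood test was under 0.05 and its log2 fold change was at least 1.5 in size. By this rule 524 genes rose (3.98% of those tested) and 1176 fell (8.92%). On the adjusted p alone, 4910 genes were higher (37.3%) and 5543 lower (42.1%), so a gene that passed the p threshold alone was the common case. The share of all genes without overlap between the groups is not given here, so a noted lack of overlap only describes the libraries. Scaling by library totals lowered all log2 fold changes by 0.26 and upper-quartile factors lowered them by 0.13, which left 342 and 408 rises beside 1592 and 1335 falls (17.7% and 23.4% of the calls were rises, against 30.8%). Rises near the threshold that ended under these scalings are named with their group.

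**Figure D1:**
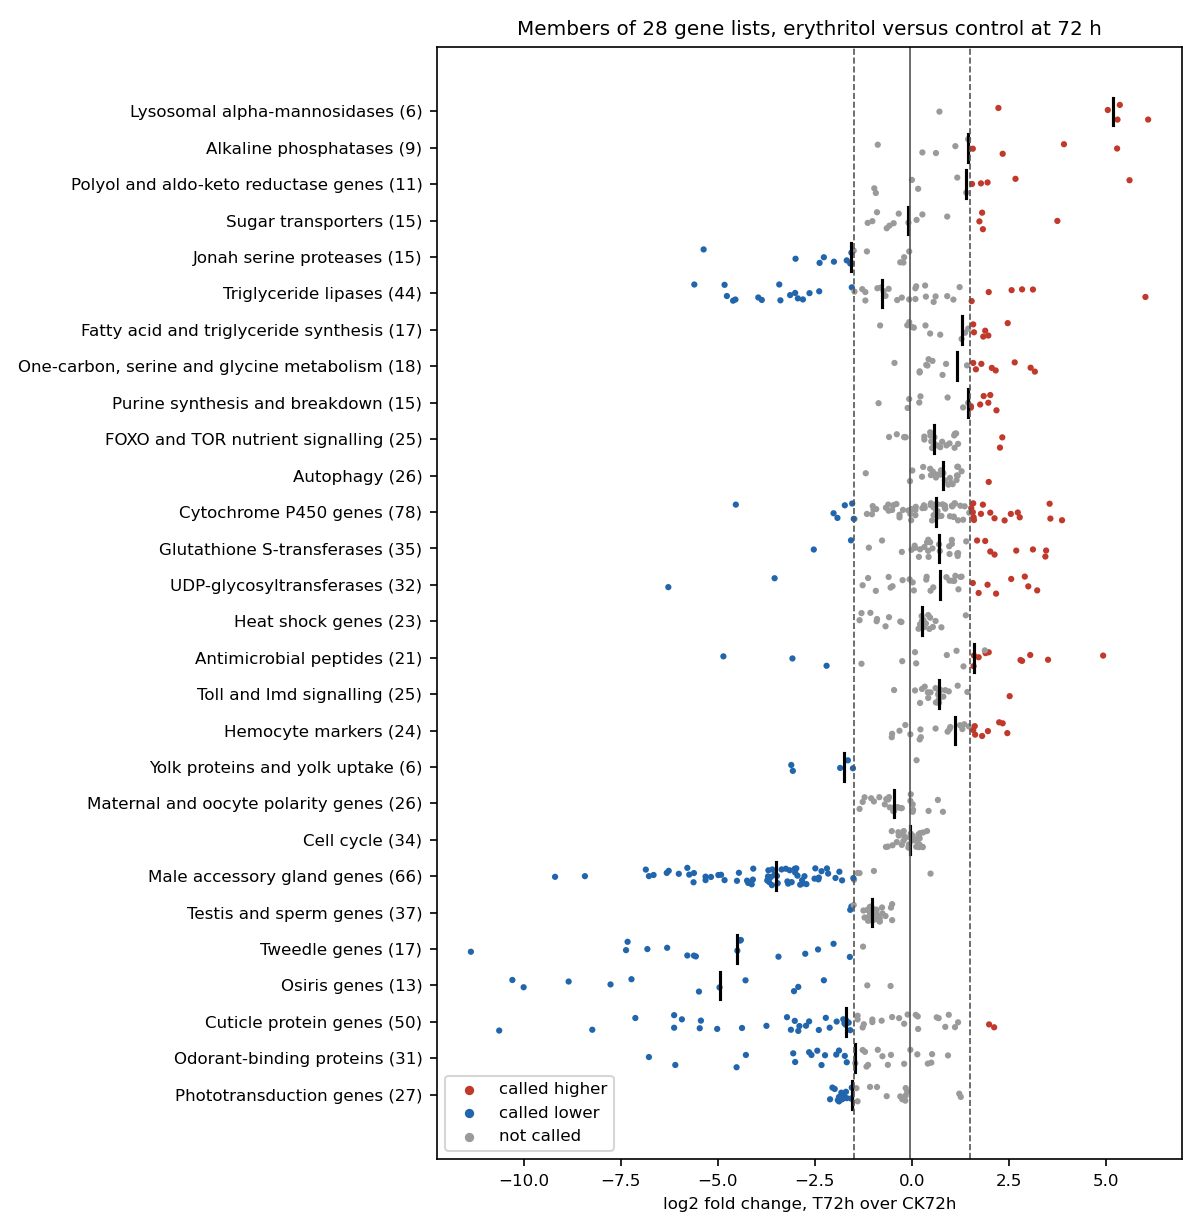
Each point is 1 tested gene of 28 gene lists (number of tested members in brackets), placed by its log2 fold change in T72h over CK72h. Black bars are list medians, the solid line is the median of all genes tested (-0.05) and the dashed lines are the thresholds of 1.5 in each direction. Accessory gland, Tweedle and Osiris genes spread far to the left, while testis genes form a narrow band near -1 and the mannosidase genes lie on the right.

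Lysosomal alpha-mannosidases, enzymes that cut mannose from the sugar chains of glycoproteins, were the gene family that rose most among the lists outside the maltases, by its median. Of 6 genes tested 5 rose, and the median log2 fold change was 5.17, against -0.05 over all genes. LManIII, LManIV, LManV and LManVI lie side by side within 16 kb of chromosome 2L (2L:8765273-8781252 in dm6). LManV was at 7.78, 6.64 and 7.07 CPM in CK72h and 309, 300.4 and 276 CPM in T72h (log2 fold change 5.36, SE 0.0586, adjusted p = 6e-29). LManVI was at 12, 9.6 and 13.1 CPM in CK72h and 463, 467 and 438 CPM in T72h (log2 fold change 5.3, SE 0.0643, adjusted p = 3.35e-28). The lowest T72h library was thus far above the highest control library in both. LManIII and LManIV, close to undetected in the controls, rose by 6.09 and 5.05 on the log2 scale, the latter from 12 to 357 counts over the group. LManI, in another place on the same arm, rose by 2.23, and its neighbour LManII, the most abundant member in CK72h, had a log2 fold change of 0.71 and was not called. Summed over the family, transcripts stood at 199 ± 7.84 CPM in the controls and 1133 ± 44.6 CPM with erythritol (SD, n = 3).

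Other enzymes of the gut moved in both directions. Alkaline phosphatases, which remove phosphate groups at the surface of gut and tubule cells, had 4 rises among 9 genes (44.4% against 3.98%) and no fall. Alp4 was at 195, 194 and 187 CPM in CK72h and 991, 999.9 and 927 CPM in T72h (log2 fold change 2.34, SE 0.0431, adjusted p = 1.63e-24), with no overlap between the groups. Alp8 and Alp7 rose from low levels by 5.29 and 3.92, and Alp9 by 1.57, a call that ended with library totals (1.31) and upper-quartile factors. Amyrel, an amylase relative named in the study, rose by 4.79 from 12 to 299 counts over the group, while the main digestive amylases Amy-p and Amy-d, near-identical copies whose counts may be split uncertainly, had log2 fold changes of 0.66 and 0.98 and were not called. sug, a sugar-responsive transcription factor gene, stood at 48.4, 45.4 and 44 CPM in CK72h and 17, 15 and 15.6 CPM in T72h (log2 fold change -1.53), a call that ended with DESeq2, with the libraries of day 3 alone, without CK72h replicate 1, without T72h replicate 2 (-1.49 in each) and without T72h replicate 3 (-1.47). Mondo, a sugar-sensing factor gene of the same list, had a log2 fold change of 0.70 and was not called.

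Many digestive proteases fell. The Jonah family, serine proteases of the midgut, had 9 falls among 15 genes (60% against 8.92% of all genes) and a median of -1.56, with no rise. Jon65Aiv was at 1879, 1885 and 1828 CPM in CK72h and 243, 233 and 225 CPM in T72h (log2 fold change -3.0, SE 0.0519, adjusted p = 4.17e-25). Jon99Fi fell by 2.27, Jon65Ai by 2.38 and Jon25Bii by 1.68 on the log2 scale. Jon65Aiii, Jon99Cii and Jon99Ciii, abundant members of which the last 2 are near-identical, fell by 1.59, 1.56 and 1.56, and these calls ended without T72h replicate 3 (-1.47, -1.38 and -1.42). Among 13 trypsins 5 fell and 2 rose (38.5% against 8.92%, and 15.4% against 3.98%). epsilonTry went from 812 ± 8.36 to 177 ± 10.5 CPM (SD, n = 3; log2 fold change -2.2) and thetaTry from 353 ± 3.71 to 99.6 ± 4.25 CPM (-1.82), while iotaTry rose by 1.87 and lambdaTry by 1.66, the latter a call that ended with library totals (1.41). The most abundant trypsins, alphaTry and betaTry, had log2 fold changes of -0.65 and -0.80 and were not called. Of 5 digestive lysozymes, enzymes that open bacterial walls, LysD (-1.68) and LysE (-2.83) fell (40% against 8.92%). Of 8 genes of the Npc2 sterol-binding family Npc2h fell by 2.31 (12.5% against 8.92%).

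Genes listed as peritrophic membrane and mucin genes were split, with 3 rises and 8 falls among 22 (13.6% against 3.98%, and 36.4% against 8.92%). The list was made by symbol, so its members need not all be genes of the gut. It includes Muc12Ea, which is also on the list of eggshell genes left aside here. Mur18B, the most abundant of them, stood at 971, 970.1 and 976 CPM in CK72h and 2497, 2462 and 2225 CPM in T72h, a log2 fold change of 1.3 that passed the adjusted p alone. Muc68Ca rose by 4.16, and Muc68E by 1.57, which ended with library totals (1.31) and upper-quartile factors. Peritrophin-15a fell by 1.91, obst-A by 3.48 and Muc91C by 4.82 on the log2 scale.

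Sugar transporter and polyol genes included several strong rises. Facilitative sugar transporters carry hexoses and trehalose across membranes, and 4 of 15 rose while none fell (26.7% against 3.98%). CG1208 was at 17.3, 14.5 and 14.8 CPM in CK72h and 214, 211 and 205 CPM in T72h (log2 fold change 3.75, SE 0.0523, adjusted p = 4.88e-27). CG4607 rose by 1.83, sut2 by 1.81 and CG1213 by 1.74, the last ending with library totals (1.48). Tret1-1, the main trehalose transporter, had 283, 278 and 275 CPM in CK72h and 531, 528 and 511 CPM in T72h, a log2 fold change of 0.91 that was not called. The median of the list was -0.09, with 6 genes higher and 7 lower on the adjusted p alone (40% against 37.3%, and 46.7% against 42.1%).

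Polyol dehydrogenases and aldo-keto reductases interconvert sugars and sugar alcohols in animals, and 5 of 11 rose with none falling (45.5% against 3.98% of all genes). CG12766 (FBgn0035476, 3L:3938624-3940125 in dm6), an aldo-keto reductase gene, was at 2.72, 2.26 and 1.96 CPM in CK72h and 115, 117 and 109 CPM in T72h (log2 fold change 5.61, SE 0.0719, adjusted p = 1.01e-27). It is among the 20 largest rises, which were taken only from genes without overlap between the groups. CG18547 went from 20.6 ± 0.542 to 131 ± 4.86 CPM (2.67), Akr1B from 196 ± 2.96 to 675 ± 17.1 CPM (1.78) and Sodh1, a sorbitol dehydrogenase gene, from 39.7 ± 0.113 to 154 ± 8.3 CPM (1.95). CG10638 rose by 1.55, which ended with library totals (1.29) and upper-quartile factors. Miox (FBgn0036262, 3L:12184984-12187860), the inositol oxygenase gene that opens the ring of the cyclic polyol myo-inositol, was among the 20 largest rises and had the highest CPM of them in T72h. It stood at 213, 208 and 214 CPM in CK72h and 3533, 3568 and 3489.6 CPM in T72h (log2 fold change 4.06, SE 0.046, adjusted p = 1.04e-28).

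In glycerol metabolism CG18135, a glycerophosphodiesterase gene, was at 286, 297 and 290.4 CPM in CK72h and 1689, 1664 and 1509 CPM in T72h (log2 fold change 2.48, SE 0.0448, adjusted p = 1.07e-24). Gpo1, the mitochondrial glycerol-3-phosphate oxidase gene, rose by 1.67, a call that ended with library totals (1.41). Glycerol kinase Gk1 and the dehydrogenase Gpdh1 had log2 fold changes of 0.93 and 0.90 and were not called. None of 7 aquaglyceroporins, channels for water and small polyols, was called. On the adjusted p alone AQP (0.78), Eglp2 (0.48) and Eglp4 (0.28) were higher and Eglp1 (-1.0), bib (-0.89) and Prip (-0.28) lower, and Drip was at -0.01 (adjusted p = 0.906). Eglp3 had 3 counts in each group and was not tested.

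Glycolysis, which breaks glucose down to pyruvate, had 2 rises among 19 genes (10.5% against 3.98%). Ald1, the aldolase gene, was at 963, 971 and 946 CPM in CK72h and 3745, 3886 and 3995 CPM in T72h (log2 fold change 2.01, SE 0.0438, adjusted p = 4.93e-23). Ldh, which turns pyruvate into lactate, was at 34.4, 37.2 and 33.2 CPM in CK72h and 128, 125 and 118 CPM in T72h (log2 fold change 1.82, SE 0.0501, adjusted p = 6.69e-21). Both were higher in each T72h library than in each control library. Hex-A, Hex-C and Gapdh1 had log2 fold changes of 0.96, 1.06 and 1.07, and Pfk one of 0.18, none of them called. The summed transcripts of the list were at 6429 ± 39.4 CPM in the controls and 12336 ± 295 CPM with erythritol (SD, n = 3). No gene of 8 in glycogen and trehalose metabolism or of 6 in the pentose phosphate pathway was called, though 7 and 5 of them were higher on the adjusted p alone (37.3% of all genes), among them UGP (1.16), Treh (0.82), Zw (1.36) and Taldo (1.33). In gluconeogenesis Pepck2, a phosphoenolpyruvate carboxykinase gene, rose from 24.8 ± 0.703 to 114 ± 1.18 CPM (2.2), and the glucose-6-phosphatase gene G6P had a value of -1.35 and was not called.

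**Figure D2:**
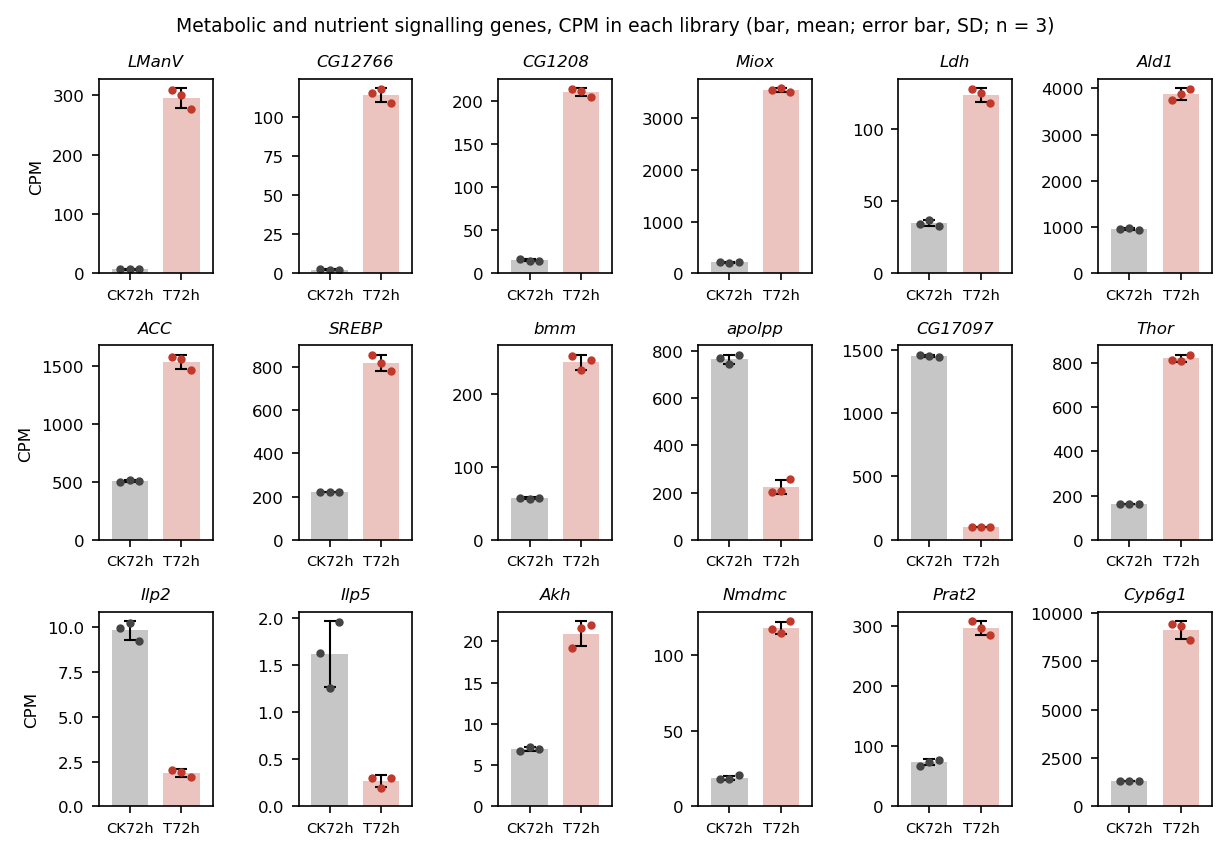
CPM of 18 metabolic and nutrient signalling genes in the 3 CK72h (grey) and 3 T72h (red) libraries. Bars are means, error bars SD, points single libraries, and each panel has its own axis from 0. The genes were chosen with earlier results known. apolpp, CG17097, Ilp2 and Ilp5 are lower in T72h and the other 14 are higher.

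Several fat synthesis genes rose, as did a lipase of stored fat. Of 17 genes for fatty acid and triglyceride synthesis 6 rose and none fell (35.3% against 3.98%), and 12 were higher on the adjusted p alone (70.6% against 37.3%). SREBP, the transcription factor that turns lipid synthesis genes on, was at 223, 222 and 219.8 CPM in CK72h and 856, 818 and 782 CPM in T72h (log2 fold change 1.89, SE 0.04, adjusted p = 2.89e-23). ATPCL and AcCoAS, which supply acetyl-CoA, went from 321 ± 0.767 to 1256 ± 63.3 CPM and from 468 ± 4.35 to 1679.5 ± 54.9 CPM (log2 fold changes 1.97 and 1.84). ACC, acetyl-CoA carboxylase, the first committed step, was at 501, 516 and 508 CPM in CK72h and 1584, 1562 and 1469 CPM in T72h (1.6). Dgat2, which adds the last acyl chain of triglyceride, rose by 2.47, and mino, an earlier acyltransferase, by 1.58. The calls of ACC and mino ended with library totals (1.34 and 1.32) and with upper-quartile factors. The desaturase Desat1, at 1743, 1749 and 1737 CPM in CK72h and 4494, 4546 and 4431 CPM in T72h, had a log2 fold change of 1.37, and Men, malic enzyme, one of 1.45, both on the adjusted p alone.

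Lipid storage and transport genes did not move as 1 group. bmm, the triglyceride lipase of the fat body lipid droplet, was at 57.8, 55.6 and 57.7 CPM in CK72h and 252, 232 and 247 CPM in T72h (log2 fold change 2.09, SE 0.0418, adjusted p = 8.42e-24). Lip3 rose by 5.14 from 13 to 411 counts over the group. apolpp, the lipophorin that carries lipids in the blood, was at 769.6, 745 and 782 CPM in CK72h and 202, 209 and 256 CPM in T72h (log2 fold change -1.78, SE 0.061, adjusted p = 7.31e-19), and T72h replicate 3 was the highest of the erythritol libraries. The perilipins Lsd-1 and Lsd-2 had values of -1.44 and -0.43 and the lipophorin receptor LpR2 one of 1.1, none of them called. None of 22 beta-oxidation genes was called. On the adjusted p alone 14 were higher and 5 lower (63.6% against 37.3%, and 22.7% against 42.1%), with whd, the carnitine palmitoyltransferase gene, at 0.73.

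Genes listed as triglyceride lipases fell more often than they rose, with 16 falls and 6 rises among 44 (36.4% against 8.92%, and 13.6% against 3.98%). The list was not split by lipase family or by organ, and which organs the falls came from was not tested. The abundant CG17097 was at 1459.8, 1446 and 1444 CPM in CK72h and 99.2, 99 and 98.8 CPM in T72h (log2 fold change -3.87, SE 0.0406, adjusted p = 3e-29). CG31872 and CG5162 fell by 3.39 and 3.01, CG17192 by 5.61 and CG18258 by 4.77 on the log2 scale. The largest rise was CG31089, on 3 counts in CK72h and 192 in T72h, 73.5-fold (counting interval 24.8 to 359, at the 95% level, counting error only). Together the lipase transcripts stood at 4678 ± 8.65 CPM in the controls and 1782 ± 51.3 CPM with erythritol (SD, n = 3). At 96 h the sums were 2715 CPM in CK96h and 1314 CPM in T96h, so the controls differed between the times as well.

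Insulin-like peptide genes of the brain fell, while the hormone gene Akh rose. The brain's insulin-producing cells make Ilp2, Ilp3 and Ilp5, which lower blood sugar and promote growth. Ilp2 was at 9.95, 10.2 and 9.25 CPM in CK72h and 2.05, 1.92 and 1.62 CPM in T72h (log2 fold change -2.39, SE 0.131, adjusted p = 1.35e-14). Ilp5 was at 1.63, 1.26 and 1.96 CPM in CK72h and 0.3, 0.192 and 0.304 CPM in T72h (log2 fold change -2.58, adjusted p = 6.24e-07), on 112 and 16 counts. Ilp3 fell by 1.85 (adjusted p = 4.34e-07), and all 3 genes had T72h libraries below the lowest control library. Akh, the hormone that mobilises stored fat and sugar, was at 6.69, 7.21 and 6.93 CPM in CK72h and 19.2, 21.6 and 22 CPM in T72h (log2 fold change 1.59, SE 0.099, adjusted p = 1.72e-13), a call that ended with library totals (1.33) and upper-quartile factors (1.46). Ilp6, the insulin-like peptide of the fat body, had no measurable difference (adjusted p = 0.99), and the AKH receptor gene AkhR had a log2 fold change of -0.62 that was not called. The cytokine gene upd3 rose by 2.74 from 24 to 142 counts.

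Genes downstream of FOXO and TOR, which respond to low nutrients, included 2 rises among 25 (8% against 3.98%). On the adjusted p alone 20 genes were higher (80% against 37.3%) and 5 lower (20% against 42.1%). Thor, the translation repressor 4E-BP, was at 163, 164 and 163 CPM in CK72h and 814, 809 and 837 CPM in T72h (log2 fold change 2.33, SE 0.0399, adjusted p = 3.24e-25), and tobi, a glucosidase gene that responds to insulin and glucagon-like signals, at 291, 294 and 287 CPM in CK72h and 1457, 1416 and 1322 CPM in T72h (log2 fold change 2.27, SE 0.0426, adjusted p = 2.32e-24). foxo itself was at 84.1, 82.7 and 82 CPM in CK72h and 141, 153 and 166 CPM in T72h, a log2 fold change of 0.89 that passed the adjusted p alone. REPTOR, unk and Sesn were at 1.1, 1.11 and 0.97. In autophagy, the degradation of cell contents in the lysosome, Atg18b rose by 1.98, and 22 of 26 genes were higher on the adjusted p alone (84.6%) with a median of 0.79 (0.54 with library totals). Among them the autophagosome gene Atg8a stood at 362, 335 and 335 CPM in CK72h and 690.1, 769 and 845 CPM in T72h (1.16), the cargo adaptor ref(2)P at 1.17 and the cathepsin gene CtsL1 at 1.18.

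One-carbon and purine metabolism held many rises and no falls. In one-carbon metabolism, which moves methyl and formyl groups from serine and glycine onto folate, 8 of 18 genes rose (44.4% against 3.98%) and none fell, with a median of 1.15. Nmdmc, a mitochondrial folate dehydrogenase, was at 18, 18 and 20.4 CPM in CK72h and 117, 114 and 122 CPM in T72h (log2 fold change 2.65, SE 0.0498, adjusted p = 2.38e-24). Sardh, which demethylates sarcosine, and CG3999, a glycine cleavage enzyme, rose by 3.17 and 3.06, and Gnmt, glycine N-methyltransferase, from 78.8 ± 1.92 to 352 ± 25.5 CPM (2.16). pug, the cytosolic folate enzyme, rose by 2.06, aay, the last enzyme of serine synthesis, by 1.79 and Shmt, serine hydroxymethyltransferase, by 1.65, which ended with library totals (1.4). Of 15 genes for purine synthesis and breakdown 7 rose (46.7%) and none fell. Prat2, which starts the purine ring, was at 67.8, 74.7 and 78.1 CPM in CK72h and 308, 298 and 286 CPM in T72h (log2 fold change 2.02, SE 0.0497, adjusted p = 6.58e-22), and Pfas, a later step, at 109, 109 and 112 CPM in CK72h and 521, 511 and 461 CPM in T72h (log2 fold change 2.18, SE 0.0459, adjusted p = 2.58e-23). Paics rose by 1.76, CG11089, which closes the ring, by 1.97, mal by 1.85 and Gart by 1.52. The call of Gart ended with library totals (1.27) and upper-quartile factors and without T72h replicate 1. Uro, urate oxidase of the Malpighian tubule, had a value of -0.86 and was not called.

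Detoxification genes rose more often than they fell. Cytochrome P450 enzymes oxidise foreign compounds and hormones, and of 78 genes 16 rose (20.5% against 3.98%) and 6 fell (7.69% against 8.92%). With library totals 11 rose and 7 fell. Cyp6g1, known for its part in insecticide resistance, was at 1325, 1337 and 1317 CPM in CK72h and 9441, 9309 and 8606 CPM in T72h (log2 fold change 2.78, SE 0.0514, adjusted p = 1.71e-24). Cyp9b2 was at 61.9, 63.2 and 63.7 CPM in CK72h and 765, 755 and 722 CPM in T72h (log2 fold change 3.57, SE 0.0428, adjusted p = 2.85e-28), Cyp309a1 rose by 3.87, Cyp12a5 by 2.73, Cyp6d5 by 2.55 and Cyp28a5 by 2.39. Cyp4g1, which makes cuticular hydrocarbons in oenocytes and is the most abundant P450 transcript, stood at 17656, 17333 and 17323 CPM in CK72h and 12427, 12762 and 11557 CPM in T72h (-0.51) and was not called. Cyp4d21, a P450 known for its expression in males, fell by 4.54. Glutathione S-transferases, which couple compounds to glutathione, had 8 rises and 2 falls among 35 (22.9% against 3.98%, and 5.71% against 8.92%). GstE1 was at 33.8, 34.3 and 32.4 CPM in CK72h and 376, 370.3 and 359.5 CPM in T72h (log2 fold change 3.46, SE 0.0407, adjusted p = 2.09e-28), GstD5 rose by 3.44, GstD2 by 3.12, GstE7 by 2.02, GstT4 by 1.89 and GstE11 by 1.68 (ended with library totals, 1.42), while the abundant GstD1 was at 1.4 and not called. UDP-glycosyltransferases, which add sugars to small molecules, had 8 rises and 2 falls among 32 (25% against 3.98%, and 6.25% against 8.92%). Ugt37A2 was at 18.9, 18.1 and 17.1 CPM in CK72h and 145, 139.9 and 146 CPM in T72h (log2 fold change 3.0, SE 0.0484, adjusted p = 1.02e-25), Ugt302E1 rose by 3.23 and Ugt49C1 by 2.17, and Ugt50B3 fell by 3.54.

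Few stress genes of other kinds were called. Among 23 antioxidant genes the peroxiredoxin genes Prx6b and Prx6c rose by 2.84 and 2.89 (8.7% of the list against 3.98%). Catalase (Cat) was at 602, 605 and 604 CPM in CK72h and 1419, 1344 and 1279.7 CPM in T72h (1.16, not called) and Sod1 at -0.10. Prx6b and Prx6c are similar copies, and the counting may split their reads uncertainly. No heat shock gene of 23 was called, with Hsp26 at -0.68, Hsp83 at -0.27 and the Hsp70 copies between 0.21 and 0.54, where reads cannot be assigned surely to 1 copy. In endoplasmic reticulum folding Sil1 rose by 2.08 (4% of the list against 3.98%). On the adjusted p alone 18 of 25 genes were higher (72% against 37.3%), among them Xbp1 (1.24). The ferritin subunits Fer1HCH and Fer2LCH were at 1.49 and 1.2 and the metallothionein gene MtnA at 1.27, none called, and MtnB rose by 1.55, a call that ended with library totals, with upper-quartile factors, without CK72h replicate 1 and without T72h replicate 3 (1.36).

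Yolk genes fell, and markers of the ovary germ line were lower in sum without a call. The summed level of 5 germ line markers (nanos, osk, bcd, grk and orb) was 705, 697 and 679 CPM in CK72h and 350.4, 358 and 345 CPM in T72h, with no overlap. The sum does not speak for each marker, as grk by itself was higher (0.80). Yolk proteins are made in the fat body and follicle cells and are loaded into eggs. Yp2 was at 3275, 3332 and 3266 CPM in CK72h and 415, 395 and 336 CPM in T72h (log2 fold change -3.11, SE 0.0812, adjusted p = 2.21e-21). Yp1 fell by 1.65 and Yp3 by 1.85, fit, a fat body gene expressed mostly in females, by 3.07 and yl, the yolk receptor gene, by 1.52. The call of yl ended with DESeq2 (-1.48), with its size factors, with the libraries of day 3 alone and without T72h replicate 3 (-1.44). An antisense transcript overlaps 54.3% of the exon bases of Yp1, and their reads cannot be told apart in these counts. None of 26 maternal and oocyte polarity genes was called, and 18 of them were lower on the adjusted p alone (69.2% against 42.1%), among them osk (-1.05), orb (-1.22) and nanos (-0.84), while grk was at 0.80. None of 27 piRNA pathway genes, 35 DNA replication genes or 34 cell cycle genes was called. CycB, a mitotic cyclin, stood at 571, 588 and 585 CPM in CK72h and 471, 469.9 and 438 CPM in T72h (-0.34), PCNA, the replication clamp, at -0.35 and piwi at -0.15. The medians of these 3 lists were -0.23, -0.09 and -0.05, against -0.05 over all genes.

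Accessory gland genes fell widely, while testis genes were lower by less. The accessory gland makes seminal proteins that pass to the female at mating. The list also holds genes of other male ducts, such as Ebp, and 61 of its 66 tested genes fell (92.4% against 8.92%). The median was -3.51, with a range from -9.20 to 0.48. Acp36DE, which helps store sperm in the female, was at 1029, 1009 and 1017 CPM in CK72h and 52.4, 54.2 and 54.3 CPM in T72h (log2 fold change -4.25, SE 0.043, adjusted p = 1.51e-29). Ebp, the ejaculatory bulb protein of the mating plug, was at 1588, 1671 and 1611 CPM in CK72h and 72.6, 69.9 and 79.1 CPM in T72h (log2 fold change -4.46, SE 0.0566, adjusted p = 8.91e-28). SP, the sex peptide that changes female behaviour after mating, was at 23.6, 20.9 and 19.4 CPM in CK72h and 1.25, 0.625 and 3.1 CPM in T72h (log2 fold change -3.7, SE 0.221, adjusted p = 7.59e-14), and Acp26Aa, which stimulates egg release, fell by 6.86. Met75Cb (-9.2) and Acp54A1 (-8.43) fell, and the esterase gene Est-6 fell by 1.87. Summed over the list, transcripts were at 11189 ± 120.3 CPM in the controls and 1329.8 ± 48.6 CPM with erythritol (SD, n = 3).

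Testis and sperm genes formed a narrow band. All 37 tested were lower on the adjusted p alone (42.1% of all genes), with a median of -1.02 and a range from -1.59 to -0.51. By the full rule 2 also fell (5.41% against 8.92%), aly (-1.59) and Taf12L (-1.56). The first of these calls ended without T72h replicate 2 and the other without replicate 1. loopin-1, which encodes a sperm mitochondrial peptidase, was at 775, 798 and 794 CPM in CK72h and 390.0, 384 and 384 CPM in T72h. S-Lap1, of the same family, was at 1015, 1042 and 1029.8 CPM in CK72h and 506, 484 and 514 CPM in T72h. The protamine gene ProtB, which has a similar copy in ProtA, was at 67, 60.5 and 65 CPM in CK72h and 29.7, 27.3 and 34.3 CPM in T72h. In each, the T72h values lay near 1 log2 unit below the controls. Of 12 Y chromosome genes 10 were lower on the adjusted p alone (83.3% against 42.1%), among them kl-5 (-1.12) and kl-3 (-0.82). Pp1-Y1 fell by 1.62, a call that ended without T72h replicate 2. roX1, a non-coding RNA that coats the male X chromosome, was at 179, 165 and 168 CPM in CK72h and 32.3, 33 and 40.2 CPM in T72h (log2 fold change -2.28, SE 0.0568, adjusted p = 8.19e-22), while the female sex determination gene Sxl was at 0.78 and not called. The part of a different share of males in the pools was not tested.

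Subunit genes of large complexes were also compared by paralog. Many respiratory chain and proteasome genes of the fly have a second copy, marked by a suffix in its symbol, and many such copies are known to be used mainly in the testis. These subsets were picked by the suffix after their values were seen and carry no test. The 20 respiratory chain paralogs with the suffix L ran from -1.39 to 0.64 with a median of -1.07. The 67 other nuclear subunit genes overlapped with them, from -1.03 to 1.56, with a median of 0.28 (0.02 with library totals). The 10 proteasome paralogs with the suffix T or R lay between -1.27 and -0.91, and the 33 other subunit genes between -0.35 and 0.39 with a median of 0.09 (-0.16 with library totals). The median of the testis list was -1.02.

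**Figure D3:**
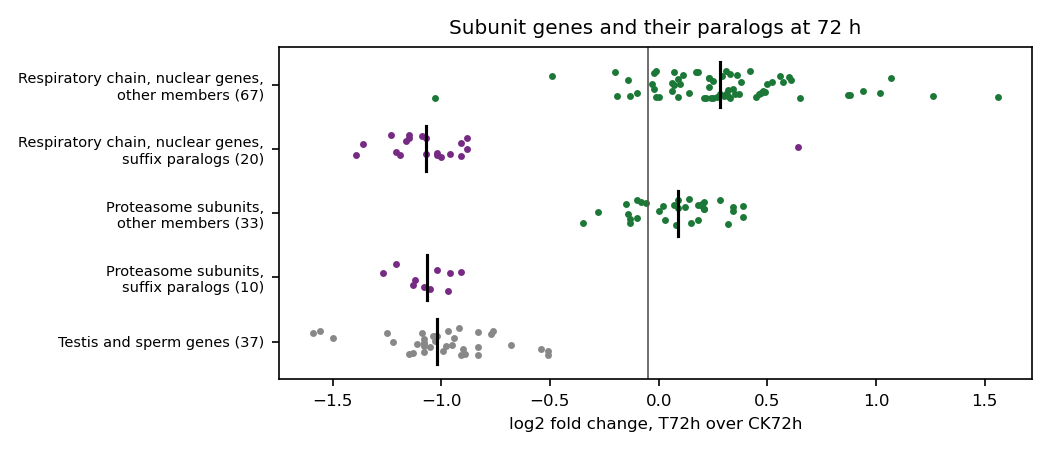
Log2 fold changes of nuclear respiratory chain and proteasome subunit genes, with the suffix paralogs (purple) apart from the other members (green), and of the testis and sperm genes (grey). Each point is 1 gene, black bars are medians (0.28, -1.07, 0.09, -1.07 and -1.02 from top to bottom) and the vertical line is the median of all genes tested.

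Among the other core complexes, 61 of 87 cytoplasmic ribosomal protein genes were higher on the adjusted p alone (70.1% against 37.3%) and 11 lower (12.6% against 42.1%). Their median of 0.20 turned to -0.06 with library totals. The vacuolar ATPase, which acidifies the lysosome, had 15 of 28 subunits higher (53.6%) and 13 lower (46.4%), with a median of 0.20 that also turned to -0.06. The 13 protein genes of the mitochondrial genome included 10 that were higher on the adjusted p alone (76.9%). Of these mt:ND6 (1.94) and mt:ATPase8 (2.18) rose (15.4% against 3.98%). mt:CoI, a cytochrome oxidase subunit, was at 11938, 10400.3 and 10603 CPM in CK72h and 20943, 28605 and 34442 CPM in T72h (log2 fold change 1.35, SE 0.115, adjusted p = 8.42e-11) and was not called. Its 3 T72h values were spread more widely than those of the controls, with the highest in replicate 3, the library with the largest mitochondrial share.

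Genes of the developing cuticle were among the largest falls. Tweedle and Osiris genes are best known from cuticle-forming epithelia of embryos, larvae and pupae, and 16 of 17 Tweedle genes and 11 of 13 Osiris genes tested fell (94.1% and 84.6% against 8.92%). Another 9 members of each family had too few counts to be tested, and those tested owed their counts mainly to the control flies, so these shares describe the members that passed the count filter. Osi7 was at 93.6, 90.1 and 88.5 CPM in CK72h and 0.0501, 0.0481 and 0.101 CPM in T72h and Osi6 at 139.8, 140.2 and 139 CPM in CK72h and 0.901, 0.961 and 0.913 CPM in T72h (log2 fold change -7.23, SE 0.0934, adjusted p = 1.23e-27), and both lie in the run of 19 listed Osiris genes on chromosome 3R (3R:6173549-6341424 in dm6). TwdlM had 1085 counts in CK72h and 0 in T72h, at least 315-fold lower with 3 counts over the group as the floor, and TwdlD fell from 9.73 ± 0.742 to 0.201 ± 0.2 CPM (-5.57). Of 50 cuticle protein genes tested of 99 listed, 28 fell and 2 rose (56% against 8.92%, and 4% against 3.98%). The others listed had too few counts to be tested, so these shares too describe only members that passed the count filter. Cpr65Au fell by 2.93, Cpr47Ef by 2.65 and Cpr51A by 1.74, Cpr92F rose by 2.12, and the abundant Cpr67B was at -0.11 and not called. An antisense transcript overlaps 93.3% of the exon bases of Cpr65Au, whose counts may include its reads. The gene nur (FBgn0051813) is named here for the size of its fall, not as a cuticle gene. It belonged to none of the lists as matched, the cuticle lists included. The yolk list held CG31813, a symbol without a match whose number corresponds to this identifier. The fitted fall of nur was the largest of all genes tested. It had 3783 counts in CK72h and 0 in T72h (at least 1098-fold lower).

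Several genes of ecdysone synthesis and response fell. The Halloween genes encode the enzymes that make the moulting hormone, which in adult females comes from the ovary. spo was at 3.3, 3.17 and 2.89 CPM in CK72h and 0.1, 0.288 and 0.152 CPM in T72h (log2 fold change -4.06, adjusted p = 1.22e-11), sad fell by 2.43, dib by 2.76 and phtm by 1.54. The call of phtm ended with the libraries of day 3 alone and without CK72h replicate 3 or T72h replicate 3 (-1.39). In all 11 of 25 genes fell (44% against 8.92%) and 1 rose (4% against 3.98%), MsrA (1.51). The call of MsrA ended with library totals, with upper-quartile factors, without CK72h replicate 3 and without T72h replicate 2. The nuclear receptors Hr4 and Hr3 fell by 2.43 and 1.73, ImpE1 by 5.22 and ImpE2, on 1858 and 2 counts, 809-fold (counting interval 224 to 6687). Eip75B and Eip74EF, early targets of the hormone in many tissues, were at 0.58 and 0.86 and were not called. For juvenile hormone, the epoxide hydrolase gene Jheh1 was at 141, 144 and 136 CPM in CK72h and 1081, 1057 and 1044 CPM in T72h (log2 fold change 2.92, SE 0.0406, adjusted p = 4.88e-27) and Jheh2 at 1.55, a rise that ended with library totals (1.29) and upper-quartile factors. An annotated antisense transcript covers 100% and 91.6% of their exon bases, so these counts may include its reads. The hormone's target Kr-h1 had a log2 fold change of 1.44 and jhamt, its synthesis enzyme gene, one of -0.89, both not called.

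Immune genes included rises and falls. Antimicrobial peptides are secreted into the blood or onto epithelia when the Imd or Toll pathway is on. Of 21 genes 10 rose (47.6% against 3.98%) and 3 fell (14.3% against 8.92%). Drs, a key member of the list, found no match by symbol and is not among the 21. With library totals 7 rose and 4 fell. DptA and DptB, diptericins under Imd control lie next to each other on 2R. DptA was at 4.06, 2.43 and 2.8 CPM in CK72h and 23.2, 26.8 and 27.6 CPM in T72h (log2 fold change 3.05, SE 0.121, adjusted p = 1.56e-17). DptB was at 4.22, 3.82 and 2.62 CPM in CK72h and 26.4, 25.7 and 24.6 CPM in T72h (log2 fold change 2.84, SE 0.0952, adjusted p = 4.81e-19), so the groups did not overlap in either gene. AttC, an attacin, was at 3.68, 5.21 and 4.93 CPM in CK72h and 31.7, 32.2 and 32.3 CPM in T72h (log2 fold change 2.8, SE 0.0831, adjusted p = 3.49e-20), Drsl3 rose by 4.93 and Dso1 by 1.98. AttA, whose reads may be split with similar attacin copies, and Dro rose by 1.6 and 1.59, calls that ended with library totals (1.35 and 1.34) and upper-quartile factors. The highest T72h value of DptA and AttC was 32.3 CPM. The 3 falls were CecA1 (-2.2), Drsl4 (-3.08) and Anp, the andropin of the male ejaculatory duct, at 74.7, 67.8 and 71 CPM in CK72h and 2.05, 1.87 and 3.45 CPM in T72h (-4.86).

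Of 12 Bomanin genes, short peptides under Toll control, BomT2 (2.26), BomS2 (1.92) and BomS3 (1.65) rose (25% against 3.98%). The call of BomS3 ended with library totals (1.39) and without T72h replicate 3. In Toll and Imd signalling 23 of 25 genes were higher on the adjusted p alone (92% against 37.3%) with a median of 0.69 (0.43 with library totals). Of these 1 rose (4% against 3.98%), pirk, an inhibitor of Imd. It was at 2.84, 4.08 and 2.93 CPM in CK72h and 19.2, 18.5 and 18.8 CPM in T72h (log2 fold change 2.52, SE 0.103, adjusted p = 3.13e-17). The Imd factor Rel was at 1.43 and the Toll inhibitor cact at 0.69. Among 11 recognition proteins PGRP-LF (1.82, 44.4% of whose exon bases overlap UGP on the other strand) and PGRP-SD (1.62, ended with library totals and upper-quartile factors) rose. PGRP-SC1a (-3.07) and PGRP-SC1b (-2.2), near-identical genes, fell. The shares were 18.2% each way, against 3.98% and 8.92%. Of 12 Turandot and JAK-STAT genes 7 were higher (58.3% against 37.3%) and 4 lower (33.3% against 42.1%) on the adjusted p alone. The median was 0.60. Of these upd3 rose (8.33% against 3.98%), and the stress peptide genes TotA and TotX fell by 2.37 and 3.47 (16.7% against 8.92%).

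Part of the markers of hemocytes, the blood cells, rose. Of 24 genes 8 rose (33.3% against 3.98%), 5 of them also with library totals and with upper-quartile factors, and none fell. Hml, hemolectin, was at 36, 35.6 and 38.1 CPM in CK72h and 174, 177 and 172 CPM in T72h (log2 fold change 2.25, SE 0.039, adjusted p = 4.09e-25). The phagocytic receptor gene NimC1 was at 6.73, 6.38 and 7.11 CPM in CK72h and 24.2, 26.6 and 27.6 CPM in T72h (1.96). Another such receptor gene, eater, was at 2.09, 2.13 and 1.47 CPM in CK72h and 6.46, 6.82 and 6.7 CPM in T72h (1.81), and NimC2 rose by 2.46. Ppn and PPO2, the latter of crystal cells, rose by 1.63 and 1.62, calls that ended under both of those scalings, as did that of NimB1 (1.58). The collagen genes vkg and Col4a1, which are also made by fat body, were at 1.24 and 0.20 and were not called.

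**Figure D4:**
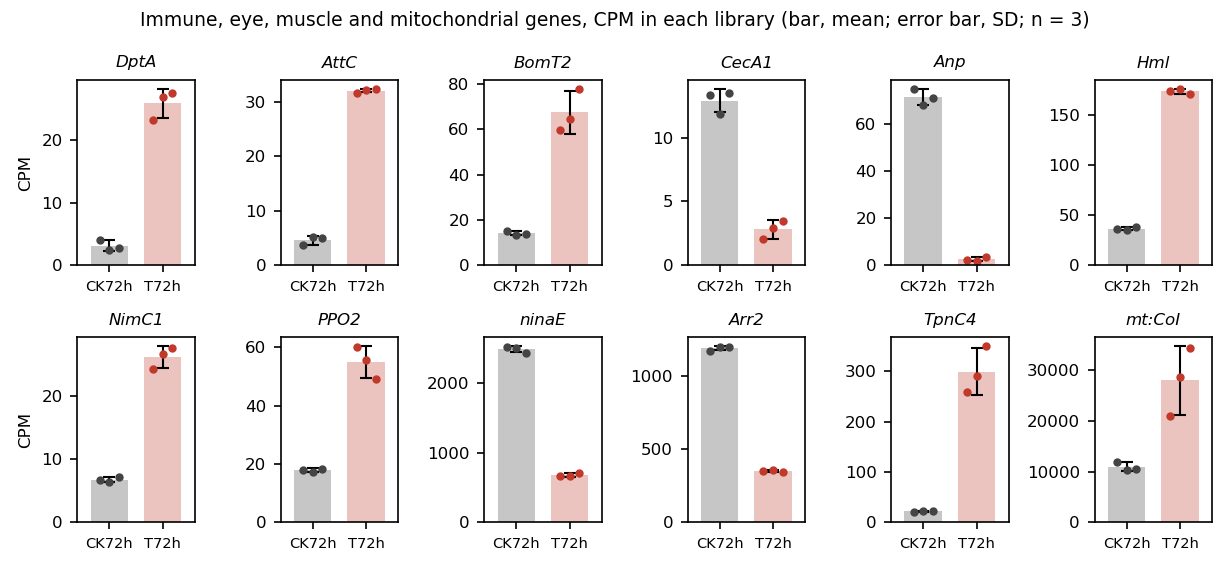
CPM of 12 immune, eye, muscle and mitochondrial genes in the 3 CK72h (grey) and 3 T72h (red) libraries; bars are means, error bars SD, and axes start at 0. CecA1, Anp, ninaE and Arr2 are lower in T72h and the other 8 higher, and mt:CoI shows the widest spread in T72h (20943 to 34442 CPM).

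Many genes of the eye fell. Phototransduction turns light into a current through rhodopsin, a phospholipase cascade and TRP channels, and 14 of 27 genes fell (51.9% against 8.92%) with a median of -1.55. ninaE, the major rhodopsin, was at 2521, 2504 and 2439 CPM in CK72h and 660.0, 661 and 713 CPM in T72h (log2 fold change -1.88, SE 0.0437, adjusted p = 1.96e-22). Arr2, the arrestin that stops it, was at 1170.3, 1195 and 1197 CPM in CK72h and 349.7, 356 and 347 CPM in T72h (log2 fold change -1.76, SE 0.0403, adjusted p = 1.4e-22) and the channel gene trp at 272, 269 and 274 CPM in CK72h and 79.6, 79.5 and 74.9 CPM in T72h (log2 fold change -1.8, SE 0.0372, adjusted p = 1.78e-23). The scaffold inaD fell by 1.91, the kinase inaC by 1.7, the G protein subunit Gbeta76C by 1.99, Rh6 by 2.05 and ninaB by 2.11, and trpl by 1.57, a call that ended without T72h replicate 3. ninaC, a photoreceptor myosin, was at -1.4 and not called. Over the whole list values ran from -2.11 to 1.26.

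The 12 clock genes ran from -1.33 to 1.73 with a median of 0.94. On the adjusted p alone 9 of them were higher and 2 lower (75% against 37.3%, and 16.7% against 42.1%). vri (1.73) and cwo (1.66) rose (16.7% against 3.98%), but with library totals both calls ended (1.48 and 1.41) and Pdf, the neuropeptide of clock neurons, fell (-1.58, against -1.33), named here after its values were seen. The clock gene tim was at 205, 208 and 210.2 CPM in CK72h and 440.4, 449 and 418 CPM in T72h (1.07, not called). No hour of sampling is given in the sources used here, and its part was not tested. Of 35 neuropeptide genes 8 fell and 3 rose (22.9% against 8.92%, and 8.57% against 3.98%). Dsk, a satiety peptide of the brain's insulin-producing cells, was at 8.41, 9.38 and 9.6 CPM in CK72h and 1.3, 1.3 and 1.52 CPM in T72h (log2 fold change -2.73, SE 0.151, adjusted p = 1.61e-14). Hug fell by 2.06, Mip by 1.65, Nplp4 by 2.72 and Nplp3 by 1.55, the last ending without T72h replicate 3. The diuretic hormone genes Dh44, Dh31 and Capa had log2 fold changes of -1.49, -0.56 and -0.68, all lower on the adjusted p alone. Dh44 passed the fold threshold with library totals (-1.75) and upper-quartile factors (-1.62), under which 12 and 11 neuropeptide genes fell. The 3 rises, of Akh, amn and Burs, ended with library totals.

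Odorant-binding proteins, small carriers of which several are made in the male ducts and the gut, had 15 falls (48.4% against 8.92%) and no rise among 31 tested of 51. The others listed had too few counts to be tested, so this share describes only members that passed the count filter. Obp56g was at 462, 466 and 466 CPM in CK72h and 56.3, 52 and 58.8 CPM in T72h (-3.06). Obp51a was at 246, 243 and 248 CPM in CK72h and 27.4, 29.6 and 34.3 CPM in T72h (-3.01). Obp19c and Obp22a fell by 6.78 and 6.1, and Obp44a and Obp99c, abundant members, were at -0.20 and 0.14 and not called. In muscle TpnC4, the troponin C of asynchronous flight muscle, was at 21.5, 23.2 and 21.9 CPM in CK72h and 258, 289.8 and 349.7 CPM in T72h (log2 fold change 3.75, SE 0.0853, adjusted p = 1.21e-22) and Act88F, the flight muscle actin, at 48.3, 47.3 and 45.8 CPM in CK72h and 239.5, 237 and 216 CPM in T72h (log2 fold change 2.29, SE 0.0429, adjusted p = 2.27e-24), while the myosin heavy chain gene Mhc was at 0.07 and Act57B at -0.01. The other 24 muscle genes were not called, though 20 of them were higher on the adjusted p alone. Over the whole muscle list 7.69% rose, against 3.98%, and 84.6% were higher on the adjusted p alone, against 37.3%.

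Among the 20 largest rises, 14 genes belonged to none of the lists, Miox among them. CG34040 was at 2.05, 2.39 and 1.91 CPM in CK72h and 194, 201 and 197 CPM in T72h (log2 fold change 6.54, SE 0.0616, adjusted p = 6.27e-30). FBgn0034711, an identifier with no symbol in the annotation used here, was at 42.1, 46.5 and 46 CPM in CK72h and 1606, 1567 and 1527 CPM in T72h (log2 fold change 5.13, SE 0.052, adjusted p = 1.51e-29). CG15784 (FBgn0029766, X:5429571-5432526) was at 38.1, 38.8 and 38.7 CPM in CK72h and 1193, 1201 and 1144 CPM in T72h (log2 fold change 4.94, SE 0.0468, adjusted p = 6.27e-30). CG12224, CG45061, CG11425, CG15533 and CG32284 rose by 5.06, 4.7, 4.57, 4.44 and 4.35, Cht4, a chitinase gene, by 4.12 and the non-coding RNA CR44138 by 4.18.

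The effects at 72 h were set beside those at 96 h, which had their own libraries and controls, by the interaction term of the same fit. Of 13179 genes 10404 (78.9%) passed the adjusted p for a difference between the effects, so a difference was the rule. Among the 1700 genes called at 72 h 1158 passed it, a smaller share than over all genes. Of the 524 rises at 72 h, 237 were also called higher at 96 h, and of the 1176 falls 629 were also called lower. The share of all genes called at 96 h is not given here. Metabolic lists changed to unequal extents. The median of one-carbon metabolism was 1.15 at 72 h and 0.56 at 96 h, that of glycogen and trehalose metabolism 0.82 and 0.04, and that of lipid storage 0.42 and -0.33, and 18 of 18, 8 of 8 and 13 of 15 genes passed the test of the difference. Single genes shown above also varied. CG12766 had 5.61 and 5.24 (adjusted p of the difference = 0.02), GstE1 3.46 and 3.44 (0.77), Cyp6d5 2.55 and 2.58 (0.605) and Ldh 1.82 and 1.89 (0.399). LManV rose less at 96 h (5.36 and 1.92, 6.03e-22), and Ald1 had 2.01 and 0.62 (1.72e-16).

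Several genes of the eye, blood cells and brain differed less from control at 96 h than at 72 h. ninaE had -1.88 at 72 h and -0.32 at 96 h (adjusted p of the difference = 1.85e-17), and 25 of 27 phototransduction genes passed the test of the difference, against 78.9% of all genes. Hml had 2.25 and 0.60 (2.69e-19), NimC1 1.96 and 0.08 (3.47e-15), Dsk -2.73 and -0.44 (2.39e-10) and Ilp2 -2.39 and -0.67 (4.03e-09). Their controls differed between the times to unequal extents. Summed phototransduction transcripts were at 6673 CPM (CK72h), 2259 (T72h), 5437 (CK96h) and 4905 (T96h), and Hml was at 36.6, 174, 145 and 219 CPM in the same order.

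Cell cycle genes went the other way, with a median of -0.05 at 72 h and -0.77 at 96 h, and CycB had -0.34 and -1.35 (3.48e-14). Their summed transcripts were at 2229 CPM (CK72h), 2028 (T72h), 3951 (CK96h) and 2032 (T96h), so the group that stood out was CK96h. The accessory gland list had medians of -3.51 and -2.37, and 55 of its 66 genes passed the test of the difference (78.9% of all genes did). The testis list had medians of -1.02 and 1.18, with all 37 genes passing it. The testis list summed to 7209.8 CPM (CK72h), 3634 (T72h), 2896 (CK96h) and 7443 (T96h), and the accessory gland list to 11189 CPM (CK72h), 1329.8 (T72h), 5236 (CK96h) and 1499 (T96h).

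**Figure D5:**
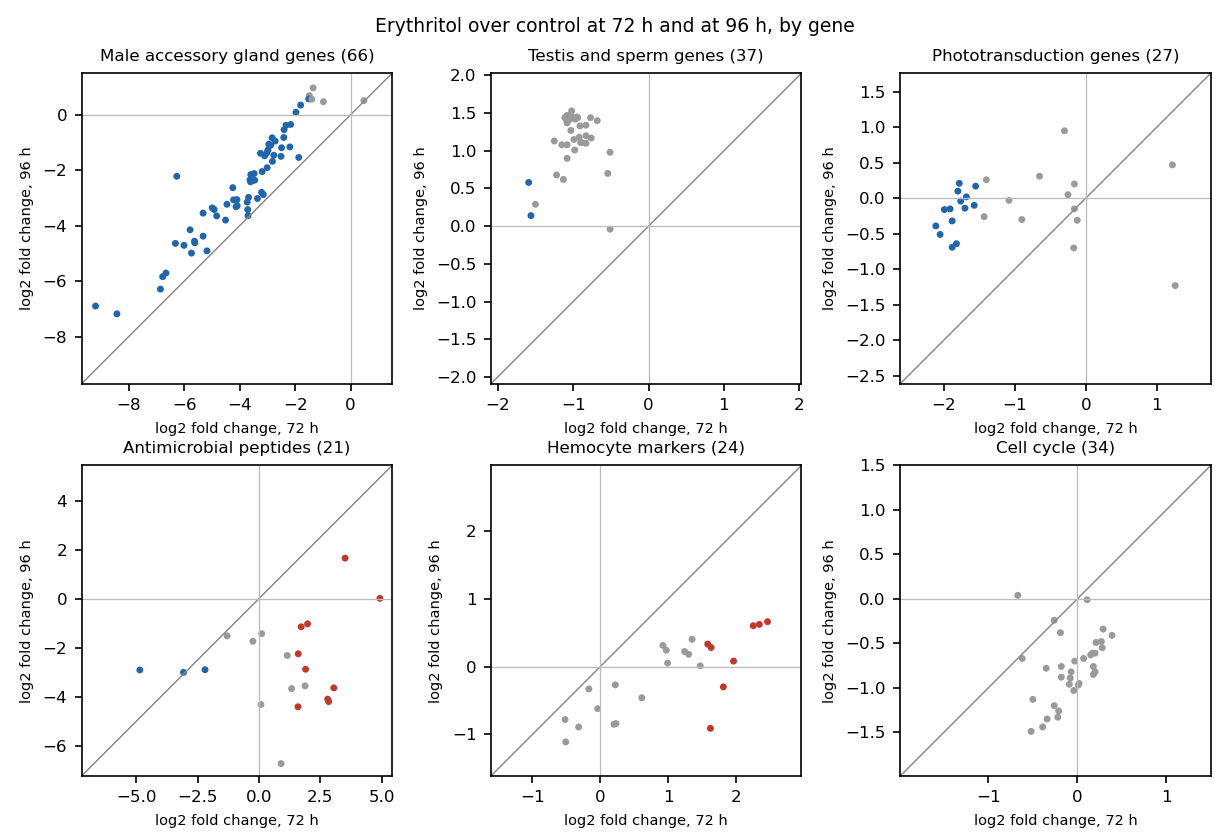
Log2 fold change of erythritol over control at 72 h (x axis) and at 96 h (y axis) for the tested members of 6 lists, 1 point per gene, coloured by the call at 72 h (red risen, blue fallen, grey neither). The diagonal marks equal effects; testis genes lie at negative x and positive y, phototransduction genes near 0 on y, and accessory gland genes follow the diagonal above it.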

How the data were processed

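The authors enriched polyadenylated RNA of pooled whole flies, sequenced it on an Illumina platform (CASAVA 1.8) and aligned reads with HISAT2 to the FlyBase release of the dm6 assembly. They deposited a table of raw counts per gene for each library, with no scaling. Which tool counted reads, and with which strand setting, was not given in the sources used here. Symbols and positions came from Ensembl's dm6 annotation. Of 17558 FlyBase identifiers 306 had no symbol (4.04% to 4.55% of counts), and 149 models predicted by the authors took at most 0.0237%.

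The counts were fitted with edgeR 4.0.16 (limma 3.58.1, R 4.3.3) as a quasi-likelihood model of 4 group means over 12 libraries, with TMM factors, edgeR's expression filter and Benjamini-Hochberg adjustment over the 13179 genes tested. Contrasts were T72h minus CK72h and its difference from T96h minus CK96h. The fit was tested on simulated data. Members of the 69 gene lists were matched by symbol. Listed symbols without a match were not counted, among them the key members Drs, FASN1 and InR, and also S6k and PPO1. The genes named are the 20 largest rises and 20 largest falls (mean log2 CPM of at least 2, no overlap between groups, eggshell and maltase genes left out), the top members of every list by adjusted p, CPM or size of change, key members, and genes the study names. The members, lists and rule were chosen with earlier results of these data known. A group with no count was given a floor of 3 counts. Exons of 123 of 551 genes eligible for naming overlap a gene on the other strand, over more than 50% of their bases in 8. Alternatives were DESeq2 1.42.0 and its size factors, upper-quartile factors, library totals, other filters, the libraries of day 3 alone, a replicate block and leaving out each 72 h library. Promoter sequences were not used here.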

Additional observations from a re-analysis of the deposited data

Results flagged for a closer look

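With 3 libraries in each group, no test for a library far from the others of its group was made. Effects at 72 h and 96 h differed by the interaction test for 10404 genes, and 26 genes were called in opposite directions at the 2 times. Among the latter were 6 antimicrobial peptide genes that rose at 72 h and fell at 96 h, with differences of 7.03 for DptB, 6.91 for AttC, 6.69 for DptA, 6.0 for Dro, 4.78 for CecC (on 12 and 40 counts at 72 h) and 3.85 for AttA on the log2 scale. DptA was at 3.1 CPM in CK72h, 25.9 in T72h, 96.4 in CK96h and 7.72 in T96h, and AttC at 4.61, 32.1, 105 and 6.1 CPM, so CK96h held the highest level of both.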

How the results depend on the processing

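Relative to 524 rises and 1176 falls, library totals gave 342 rises, and a threshold of 1 on the log2 scale gave 1089 and 2613. On the adjusted p alone there were 4910 and 5543. The other scalings, filters, DESeq2 and the libraries of day 3 alone gave counts within 1.5 times. Leaving out 1 library at a time gave 525 to 563 rises and 1203 to 1261 falls, and 10227 to 10275 genes whose effects differed between the times. Same-numbered libraries did not deviate together (correlations of -0.00973, -0.0107 and 0.0277), and a replicate block gave 522 rises and 1179 falls. Of 278 called genes that were followed, none reversed under any alternative, and 27 lost their call with library totals. RpL37-2 and clos, at -1.52 each, lost theirs with DESeq2 (-1.48 each).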
